A study of Mus musculus with 21 samples.

Results

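The comparison set 8 ceca with high levels of interferon-stimulated genes against the other 13 ceca of the same study, in all genes that could be tested. The 8 interferon-high libraries were chosen by their measured levels of such genes, with Isg15, Ifit1 and Oas1a as markers. They came from mice 8 and 17 at 0% broccoli powder, 18 and 20 at 0.5%, 32 at 1.0%, and 40, 42 and 45 at 2.5%, so they were 8 of 21 libraries in all. The split is one of the data and not of the study's design. The differences in interferon genes are therefore given as a description. Where such genes are counted past a threshold, the count only sorts them, and the p-values behind it are fixed in part by the choice and support nothing. An adjusted p of any other gene states how it went with a split drawn from the same libraries. Each library is 1 cecum, the pouch where small and large bowel meet, from 1 numbered C57BL/6 mouse. Mice entered the study at 3 weeks of age, ate a Total Western Diet for 6 weeks, and then had the same diet with or without broccoli powder for 3 more weeks. The interferon-low libraries came from 4 mice at 0% (13, 14, 15 and 16), 3 at 0.5% (26, 76 and 77), 4 at 1.0% (31, 36, 37 and 80) and 2 at 2.5% (44 and 46). No infection, injection or genetic change is named in the labels for either class, and sex and cage are not named in the sources used here.

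Interferons are secreted proteins that cells release after sensing viral or other foreign nucleic acid. Type I interferons act through the receptor chains Ifnar1 and Ifnar2, and type III interferons act through Ifnlr1, mainly on epithelium. Both lead through the kinases Jak1 and Tyk2 to a complex that holds Stat2 and Irf9 and binds a DNA element called the interferon-stimulated response element (ISRE). Type II interferon, Ifng, acts mainly at another element, the gamma-activated site (GAS). In the gut, epithelial cells hold a low standing level of interferon-stimulated genes, which is known to depend on the microbiota.

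Library totals ran from 28514263 to 58594569 counts. Large intestine genes were abundant in both classes: the carbonic anhydrase Car1 stood between 2868 and 5790 CPM (a gene's counts scaled to a library of fixed size) and the water channel Aqp8 between 263 and 742 CPM over the 21 libraries. Genes of the small intestine were high in 6 libraries. By the mean log2 CPM of 14 such genes, 3 of these libraries were interferon-high (mice 18, 40 and 42, 4.57 to 4.67) and 3 were interferon-low (mice 16, 31 and 76, 5.02 to 6.63). In whole tissue, a change in the number of cells of a type and a change of RNA per cell cannot be told apart.

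Isg15 encodes a small ubiquitin-like protein that is attached to other proteins. It stood at 3.25, 7.39 and 18.9 CPM (lowest, median, highest) in the 8 interferon-high libraries and at 1.73, 2.04 and 4.25 CPM in the 13 others. Of the 8 libraries, 7 lay above all 13. With diet in the fit, the difference in log2 level was 1.71 ± 0.25 (SE), or 3.28-fold. Ifit1, which binds foreign RNA and blocks its translation, stood at 24.5, 46.05 and 64.8 CPM against 10.2, 16.7 and 25.0 CPM. Again 7 of the 8 lay above all 13, and the log2 difference was 1.48 ± 0.20 (SE). Oas1a makes the 2′-5′ oligoadenylates that activate RNase L. It stood at 19.9, 26.7 and 31.4 CPM against 15.995, 18.5 and 23.2 CPM, with a log2 difference of 0.53 ± 0.08 (SE).

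The labelled split and the 3 markers did not fully match at the border. By the mean log2 CPM of Isg15, Ifit1 and Oas1a, mouse 77 (0.5%) ranked 8 of 21 with 3.69 and mouse 40 (2.5%) ranked 9 with 3.54. Mouse 77 is in the interferon-low class and mouse 40 in the interferon-high class. The 8 libraries spanned 3.54 to 5.001 and the 13 spanned 2.92 to 3.69. Other interferon genes placed mouse 40 above mouse 77, among them Oasl2 at 38.6 against 28.2 CPM and Irf7 at 68.7 against 58.1 CPM. By these 3 markers the border of the class was thus close, and whether the libraries form a range or separate groups was not tested.

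**Figure D1:**
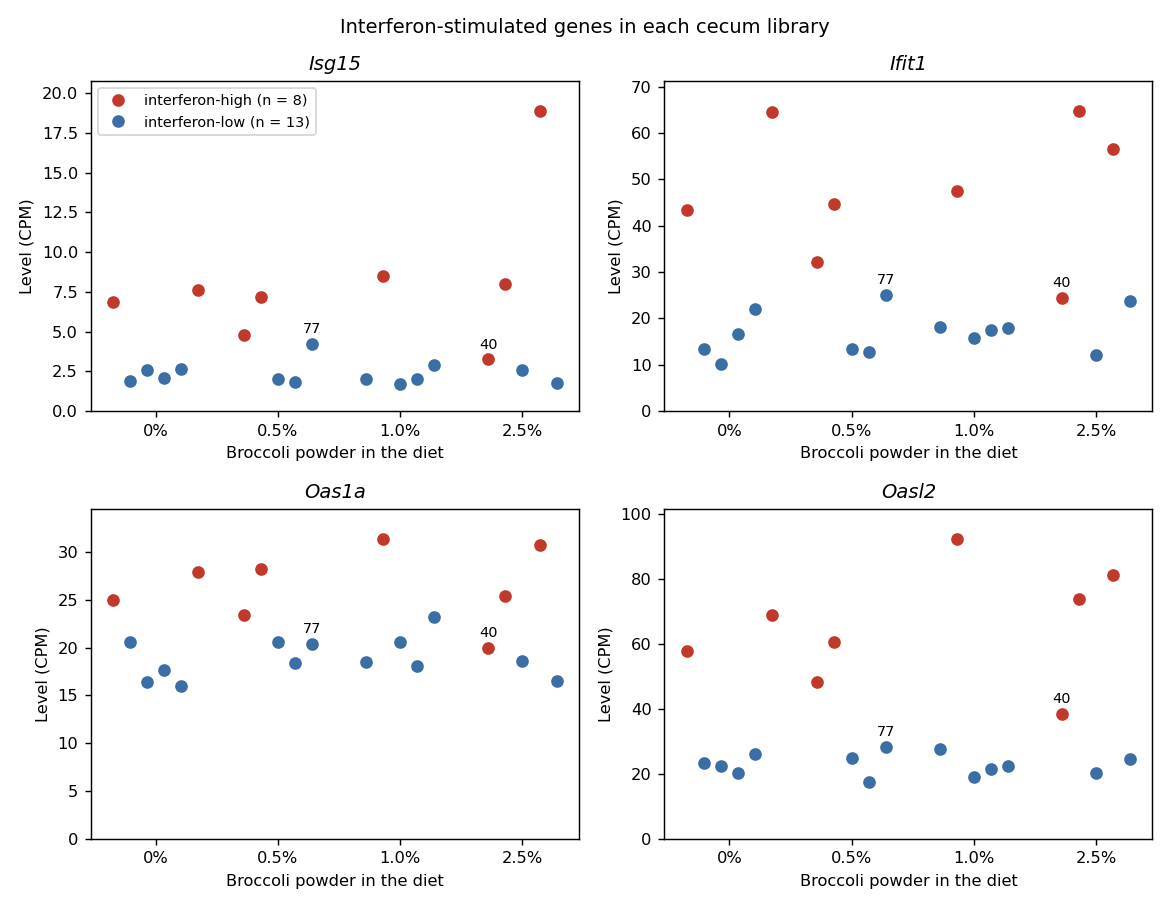
Level in CPM of Isg15, Ifit1, Oas1a and Oasl2 in each of the 21 libraries, by diet, with each point 1 mouse and colour giving the class (y axes start at 0). In each diet the interferon-high points lie above the interferon-low points of that diet; mouse 40 is the lowest of the 8 in these 4 genes, and mouse 77 overlaps it in Isg15, Ifit1 and Oas1a but not in Oasl2.

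The promoters of the genes with large differences are shown because many hold the ISRE. RefSeq promoter sequences on GRCm38.p6, from 250 bases before to 50 bases after the start, matched 21 of the 24 genes that pass the threshold given below. The core searched was GAAANNGAAA on either strand (TTTCNNTTTC), with overlapping matches allowed. Each line below runs 5′ to 3′ on the gene's strand, with matches of the core in capitals and 20 bases on either side (on the right fewer where the gene starts).
Isg15, chr4:156200855-156200916, minus strand: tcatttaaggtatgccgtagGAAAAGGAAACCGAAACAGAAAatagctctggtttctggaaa
Ifit1, chr19:34640765-34640833, plus strand: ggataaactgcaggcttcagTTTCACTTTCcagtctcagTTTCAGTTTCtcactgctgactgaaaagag
Oas1a, chr5:120907526-120907565, minus strand: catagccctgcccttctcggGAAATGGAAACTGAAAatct
Apol9a, chr15:77411104-77411159, minus strand: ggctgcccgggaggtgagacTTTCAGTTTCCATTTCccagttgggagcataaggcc
Ifit3, chr19:34583353-34583436, plus strand: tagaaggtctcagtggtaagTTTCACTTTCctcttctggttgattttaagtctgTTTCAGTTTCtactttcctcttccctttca
Ddx60, chr8:61928014-61928086, plus strand: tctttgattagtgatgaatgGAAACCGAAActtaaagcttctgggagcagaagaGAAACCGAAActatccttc

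The Isg15 promoter held 3 overlapping matches, and the other 5 promoters printed held 2 each. In Isg15, Oas1a and Ddx60 the core reads GAAA on the gene's strand, and in Ifit1, Ifit3 and Apol9a it reads TTTC. The core was found in 12 of the 21 promoters (57.1%), in 407 of 11764 promoters of tested genes outside the interferon lists (3.46%), and in 1079 of all 27025 promoters (3.99%). Of the other interferon-list genes tested, 46 of 124 held it (37.1%). The GAS letters TTCNNNGAA, the same on both strands, were found in 2 of the 21 (9.52%), in Oas1a and Ifit2, and in 2582 of all 27025 promoters (9.55%). Only Oas1a of the 21 held both motifs, and they did not overlap there. In all promoters, 166 held both, with overlapping bases in 23. Oasl2, Xaf1 and Irf7 were among those with no core match in this window, which says only that these letters are not there. A match is a description of the sequence and shows no binding.

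Of 15652 genes tested with edgeR's quasi-likelihood test, 24 passed an adjusted p of 0.05, all of them higher in the interferon-high ceca, which is 0.153% of the genes. All 24 were in the interferon lists, 211 genes of which 181 could be tested. Since such genes set the split, that share is background for the reader and no result. The interferon lists as a whole leaned the same way, with 149 of 181 members (82.3%) positive and a median log2 difference of 0.157, against a median of -0.0028 over all tested genes. All 8 libraries stood above all 13 in 6 genes, 0.0383% of those tested, and below all 13 in 0 genes, or 0%. The 6 were Oasl2, Ddx60, Xaf1, Oas1g, Ifit3b and Apol9a.

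Members of the oligoadenylate synthetase family were the most numerous among the 24, with 6 genes, all on chromosome 5 (GRCm38). Oasl2 stood at 38.6, 64.8 and 92.4 CPM in the interferon-high libraries and at 17.4, 22.4 and 28.2 CPM in the others. The 2 ranges left a gap of more than 10 CPM, and the log2 difference was 1.52 ± 0.13 (SE). Oas2 stood at 2.52, 4.90 and 10.3 CPM against 1.19, 1.84 and 2.61 CPM, a log2 difference of 1.64 ± 0.21 (SE). Oas1g, Oas1b and Oas3 had log2 differences of 0.67, 0.79 and 0.65. The groups overlapped in Oas3, where only 2 of the 8 libraries lay above all 13. Oas1b is annotated as a polymorphic pseudogene. Oas1a, Oas1b and Oas1g are close paralogs, and the way in which reads shared between them were counted is not given in the sources used here, so their separate values are uncertain.

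The RNA-binding Ifit proteins are encoded side by side on chromosome 19, and 4 of them were among the 24. Beside Ifit1, Ifit3 stood at 12.1, 18.1 and 29.6 CPM against 6.67, 9.17 and 12.4 CPM, a log2 difference of 1.11 ± 0.13 (SE). Its near copy Ifit3b stood at 4.62, 6.22 and 9.69 CPM against 2.28, 3.13 and 4.13 CPM, with no overlap. Ifit2 had a smaller log2 difference of 0.61 ± 0.09 (SE), at 15.2, 20.8 and 27.9 CPM against 10.7, 13.3 and 16.8 CPM. The neighbouring Ifit1bl1 had a log2 difference of 1.07 ± 0.36 (SE), and it varied widely in both classes, from 45.98 to 126 CPM against 10.1 to 80.3 CPM.

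The apolipoprotein L genes Apol9a and Apol9b, both on chromosome 15, held the largest and the fourth largest log2 difference of the 24. Apol9a stood at 6.70, 12.7 and 19.9 CPM against 1.67, 2.56 and 6.42 CPM, a log2 difference of 1.85 ± 0.24 (SE), or 3.60-fold. The highest interferon-low library, that of mouse 77, fell just short of the lowest interferon-high one, that of mouse 18. Apol9b stood at 2.46, 5.01 and 10.6 CPM against 1.01, 1.77 and 2.59 CPM, a log2 difference of 1.59 ± 0.22 (SE). These 2 genes are near copies, so reads could be split between them.

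Of the remaining genes, Ddx60, a helicase linked to sensing of viral RNA, stood at 12.2, 16.9 and 26.1 CPM against 6.91, 8.34 and 11.002 CPM, a log2 difference of 1.01 ± 0.11 (SE). Irf7, the transcription factor that amplifies type I interferon expression, stood at 53.0, 65.3 and 75.3 CPM against 22.3, 38.7 and 64.6 CPM. The classes overlapped in Irf7, where 4 of 8 libraries lay above all 13, and its log2 difference was 0.73 ± 0.14 (SE). Irf7 overlaps Phrf1 on the opposite strand, and whether the counting used strand is not stated in these sources. Xaf1, which binds the cell death inhibitor Xiap, stood at 10.7, 12.97 and 17.5 CPM against 6.40, 8.06 and 9.45 CPM. Rtp4 stood at 9.43, 16.7 and 19.6 CPM against 5.09, 6.19 and 11.9 CPM, a log2 difference of 1.17 ± 0.15 (SE), and its locus overlaps Masp1 and Gm45338.

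The rest of the 24 had smaller differences. Herc6, which encodes a ligase that attaches Isg15 in mice, had a log2 difference of 0.42, the large ubiquitin ligase gene Rnf213 of 0.40, Trim30a of 0.39 and Trim34a of 0.30. Lgals3bp, a secreted galectin-binding protein, stood at 188, 221 and 238 CPM against 156, 169 and 204 CPM, with a log2 difference of 0.35 ± 0.06 (SE). Slfn4, a Schlafen gene, and Phf11d had log2 differences of 0.66 and 0.67.

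**Figure D2:**
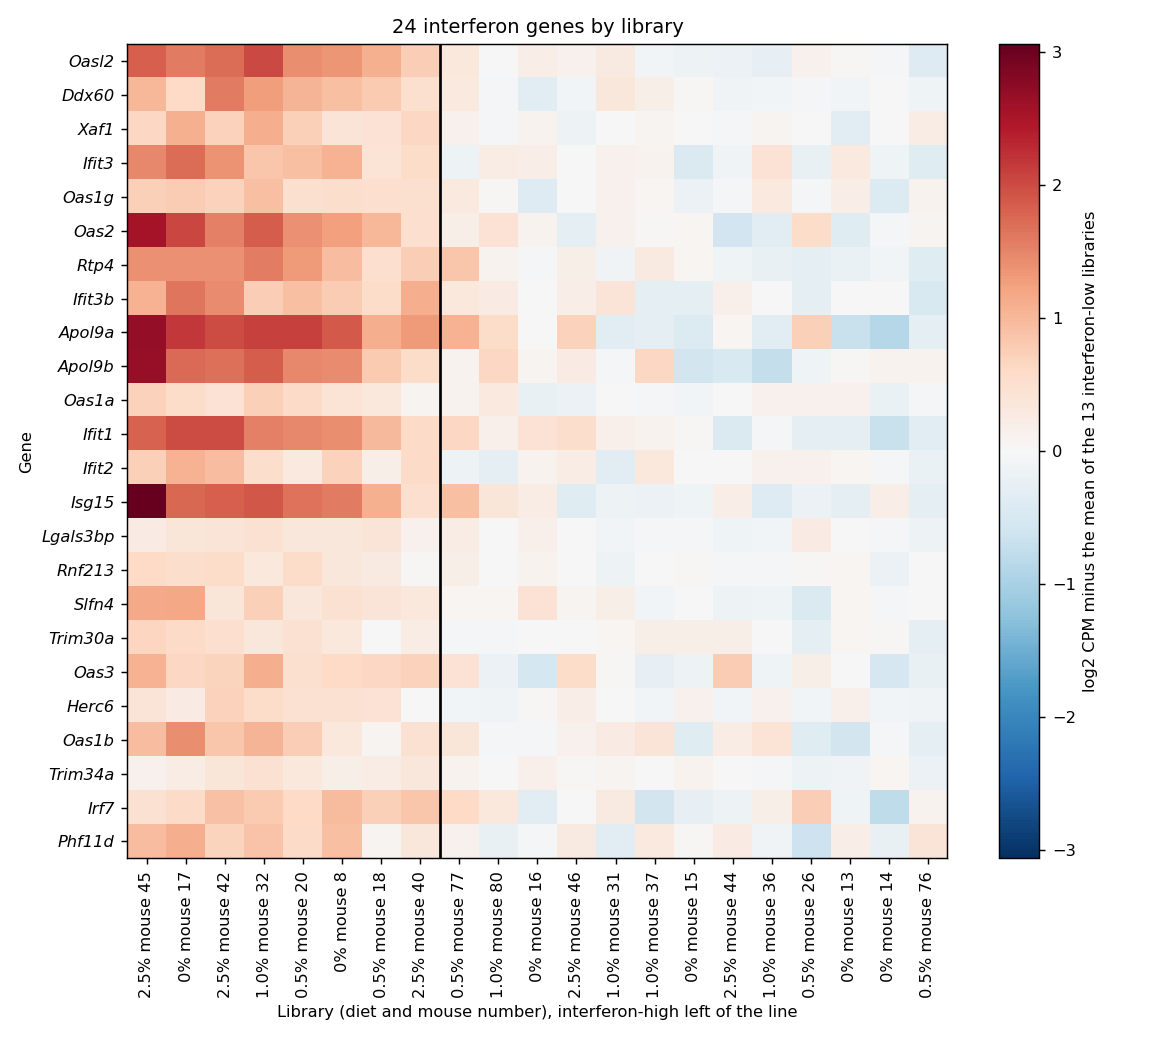
The 24 interferon genes (rows) in the 21 libraries (columns), as log2 CPM minus the mean of the 13 interferon-low libraries (colour bar), with interferon-high libraries left of the line and each class ordered by the mean of Isg15, Ifit1 and Oas1a. The colour is strongest in the libraries of mice 45, 17, 42 and 32 and weakest in those of mice 18 and 40; mouse 77 is the reddest column right of the line.

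The 8 libraries differed among themselves in how far the 24 genes were raised. The mean log2 level of the 24 over that of the interferon-low libraries was 0.51 for mouse 40, 0.54 for mouse 18, 0.81 for mouse 8 and 0.86 for mouse 20. It was 1.05 for mouse 42, 1.07 for mouse 32, 1.12 for mouse 17 and 1.20 for mouse 45. Mouse 77, the highest of the 13, had 0.28. Mouse 32 held the highest value of all libraries in 8 of the 24 genes, and mice 17 and 45 in 6 each. Mouse 40 was the lowest of the 8 in 11 genes and mouse 18 in 8. All 8 libraries lay above the interferon-low median in 24 of 24 genes, while the 13 lay above it in 6 to 20 genes, the 20 being mouse 77. The 24 genes were picked by the same comparison of the same libraries, so the count for the 8 follows in large part from that choice. The median is that of the 13 themselves, so they lie on both sides of it by construction.

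The classes were spread over the diets, and a two-sided exact test of class by diet gave p = 0.779 over the 21 mice. Each of the 24 genes was higher in the interferon-high libraries of each of the 4 diets. All high libraries lay above all low ones in 24 genes at 0%, 20 at 0.5%, 24 at 1.0% and 22 at 2.5%, with 18 genes separated in all 4 diets. These counts rest on 2 against 4, 2 against 3, 1 against 4 and 3 against 2 mice. With so few mice a gene can separate easily, and the share of all tested genes that did so within a diet was not counted. The 24 genes were also picked for their difference in these same libraries. Their direction and separation within diets thus describe the split and are no independent repeat of it. Within 2.5%, Oas3 differed by 0.15 on the log2 scale, against 1.24 within 1.0%. The test of a class difference that depends on diet called 0 of 15652 genes with edgeR, with 385 at an unadjusted p under 0.05, and the smallest adjusted p was 0.666, for the kinase gene Hunk. DESeq2 called 1, also Hunk, with an adjusted p of 0.00209.

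Genes of the GTPase list, many of which are known to respond to type II interferon, differed unevenly. The list holds the guanylate-binding and immunity-related GTPases that attack vacuoles of microbes. Of its 14 tested members 0 passed with edgeR, 10 were positive, and the median log2 difference was 0.08. In 3 members the unadjusted p was under 0.05, against 3.16% of all tested genes. As this is an interferon list, that count follows in part from the choice of libraries and supports nothing. The largest difference was that of the predicted gene Gm5431, at 5.67, 7.79 and 10.999 CPM against 2.24, 3.75 and 7.77 CPM. Its log2 difference was 0.92 ± 0.23 (SE), positive within all 4 diets, from 0.64 to 1.41. Gm5431 is named as the largest of its list, so its signs within diets are no independent repeat. Irgm1 had 0.34 ± 0.07 (SE) and Irgm2 0.37 ± 0.09 (SE), while Gbp2 had 0.26 ± 0.15, Gbp3 0.09 ± 0.13, Gbp5 -0.09 ± 0.13 and Iigp1 0.00 ± 0.20. The ISRE core was in 8 of 9 GTPase promoters in the RefSeq table (88.9%) and the GAS letters in 4 (44.4%). Both shares were larger than among the 24 genes.

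Genes that load and present peptides on MHC class I leaned higher. Of 22 tested, 18 were positive with a median log2 difference of 0.13, and 0 passed with edgeR. An unadjusted p under 0.05 was seen in 10 of them, against 3.16% of all tested genes. As this is also an interferon list, the lean and the count follow in part from the choice of libraries and support nothing. The peptide pump subunit Tap1 had 0.30 ± 0.09 (SE), and its partner Tap2 had 0.15 ± 0.06 (SE). The class I heavy chain H2-K1 stood at 337, 350 and 453 CPM against 256, 300 and 417 CPM, a log2 difference of 0.23 ± 0.08 (SE). Within diets H2-K1 had 0.50, 0.01, -0.02 and 0.30 from 0% to 2.5%, and the 453 CPM was mouse 17 alone. The immunoproteasome gene Psmb8 had 0.34 ± 0.15 (SE). Nlrc5, the transactivator of class I genes, had 0.00 ± 0.11 (SE), and Ciita, that of class II genes, had 0.03 ± 0.19 (SE). The ISRE core was in 4 of 19 promoters of this list (21.1%) and the GAS letters in 2 (10.5%).

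The signalling core itself showed small differences in RNA. Stat2 had a log2 difference of 0.32 ± 0.07 (SE) and Irf9 0.41 ± 0.10 (SE). Irf1 and Irf8, which are known to respond to type II interferon, had 0.11 ± 0.08 and 0.01 ± 0.07 (SE). Other classical interferon-stimulated genes had larger log2 differences at low levels: 0.93 for Mx2, 0.63 for Mx1, 0.86 for Ifi44, 0.78 for Zbp1 and 0.70 for Rsad2. The RNA sensors Ddx58 (RIG-I) and Ifih1 (MDA5) had 0.22 and 0.20. The Isg15 hydrolase Usp18 had 0.26 ± 0.08 (SE). Near 0 stood the kinase Eif2ak2 at 0.08 ± 0.06 (SE), and Ifitm1, Ifitm2 and Ifitm3 at -0.04, -0.02 and 0.06. Ly6c2, at levels below 1.5 CPM, did not pass the threshold (edgeR adjusted p = 1.00) and stood at 0.099, 0.367 and 0.620 CPM against 0.206, 0.653 and 1.49 CPM, a log2 difference of -0.84 ± 0.33 (SE).

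Interferon transcripts themselves gave almost no counts. Ifnb1, Ifna1, Ifna2, Ifna4, Ifna5, Ifna13, Ifne, Ifnk, Ifnl2 and Ifnl3 were listed at 0 in all 21 libraries, as were the chemokines Cxcl10 and Cxcl11. Since a gene can be listed at 0 for reasons of annotation, this is given as listed and not as absence. Ifng had 26 counts in all, 6 in the interferon-high and 20 in the interferon-low libraries. Ifnz, a type I interferon gene, had 16 counts in 6 libraries, 10 in the interferon-high and 6 in the interferon-low ones. The counts of Ifng and Ifnz are raw sums over 8 and 13 libraries of unequal depth. No difference between the classes is read from them. The chemokine Cxcl9, a type II response gene, stood at 0.868, 1.01 and 2.11 CPM against 0.353, 1.20 and 7.81 CPM, the highest being mouse 16 of the interferon-low class.

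Receptors and sensors upstream of the response differed little. Ifnar1 stood at 42.6, 44.3 and 47.2 CPM against 38.0, 43.1 and 49.7 CPM, and its log2 difference was 0.04, with a 95% interval from -0.06 to 0.15. Ifnlr1 had 0.07 (-0.07 to 0.22) and Ifngr1 0.03 (-0.06 to 0.12). The adaptor Mavs had 0.10 (-0.02 to 0.23) and the endosomal RNA sensor Tlr3 0.03 (-0.12 to 0.17). Tlr7, another RNA sensor, was below 2 CPM in all libraries and had -0.29 (-0.83 to 0.24). Over the receptor and kinase list 0 of 12 tested genes passed with edgeR, with 0 at an unadjusted p under 0.05. Over the nucleic acid sensing list 0 of 19 passed, with 1 at an unadjusted p under 0.05, the kinase Tbk1 at 0.13 ± 0.05 (SE).

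Beyond the interferon lists, 0 of 15471 genes passed the edgeR test, a share of 0%. Of these, 419 genes (2.71%) had an unadjusted p under 0.05, 197 higher and 222 lower, and the smallest adjusted p was 0.161. With no difference at all, a share of about 0.05 would be expected under that p, so the 419 are no excess. The median SE of a log2 difference over these 15471 genes was 0.0959, with an upper quartile of 0.162. The highest unadjusted edgeR p that passed was 7.4e-05, for Phf11d, so a difference had to be several times its SE to pass. Smaller differences are therefore not excluded. DESeq2 called 2 of them, Lypd8 and Saa3, and limma voom called 0. In the plot of all tested genes, the height of the interferon-list points follows from the choice of the libraries and is no result.

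**Figure D3:**
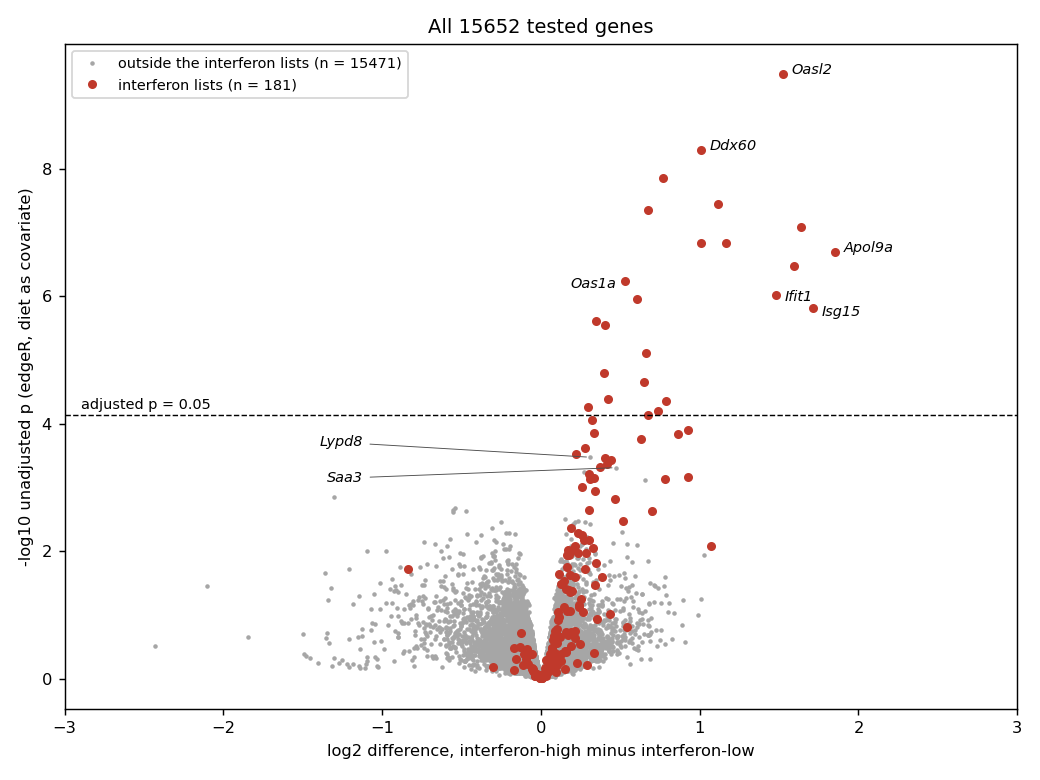
Log2 difference (interferon-high minus interferon-low, diet in the fit) against -log10 of the unadjusted edgeR p for 15652 genes, with the 181 interferon-list genes in red and the other 15471 in grey. The 24 points above the dashed line (adjusted p of 0.05) are all red and all to the right; Lypd8 and Saa3 are the grey points nearest to it.

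Lypd8 and Saa3 came nearest outside the interferon lists. Lypd8, on chromosome 11, is an epithelial surface protein that keeps flagellated bacteria away from the colon lining. It stood at 2137, 2593 and 2825 CPM against 1815, 2032 and 2521 CPM, with 6 of the 8 above all 13. The log2 difference was 0.31 ± 0.07 (SE), or 23.9%, and was positive within all 4 diets (0.36, 0.17, 0.43 and 0.32 from 0% to 2.5%). Lypd8 was picked by its low p in these same libraries. Its separation and its signs within diets thus follow in part from that choice and are no independent repeat. With edgeR its adjusted p was 0.161, and with DESeq2 it was 0.00821. Saa3, an acute phase serum amyloid A protein induced by bacteria, stood at 9.97, 16.3 and 21.3 CPM against 8.11, 12.2 and 21.5 CPM. No high library lay above all 13, since mouse 77 was the highest of all. Its log2 difference was 0.47 ± 0.12 (SE), with an adjusted p of 0.207 in edgeR and 0.0357 in DESeq2. Without the library of mouse 77 the edgeR difference was 0.54, with an adjusted p of 0.0199. Mouse 77 is interferon-low and the highest in Saa3, so leaving it out raises the difference. Saa3 did not pass in edgeR when any other single library was left out. The related Saa1 had 0.29 ± 0.27 (SE), and Reg3g and Reg3b had standard errors above 2. In the list of genes that respond to microbes, which holds Saa3, 6 of 14 tested genes were positive, with a median log2 difference of -0.03. Saa3 was the 1 gene of that list with an unadjusted edgeR p under 0.05.

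The other genes of lowest p outside the lists did not pass either, and most had small differences. Like Lypd8, they were picked by their p in these same libraries. Oas1h, an oligoadenylate synthetase not in the interferon lists, stood at 1.99, 3.54 and 5.05 CPM against 1.53, 2.09 and 3.79 CPM, a log2 difference of 0.65 ± 0.17 (SE) with an edgeR adjusted p of 0.268. With the mean of the 3 markers as a continuous measure it was the 1 gene outside the lists that passed, with an edgeR adjusted p of 0.0324. That mean holds Oas1a, a gene of the same family on the same chromosome. How reads shared within the family were counted is not given, so this pass shows nothing beyond the genes that set the split. Cox5b, a subunit of cytochrome c oxidase, had 0.27 ± 0.07 (SE), and 5 of the 8 libraries lay above all 13. Esrrb, an orphan nuclear receptor gene, had 0.69 ± 0.20 (SE) at 1 to 2 CPM in the interferon-high libraries. The chaperone regulator Bag1 had 0.15, Stard3nl 0.21 and Rnf31 0.23. Rnf31 overlaps Irf9 on the same strand, and Stard3nl overlaps Gm42683 on the same strand.

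On the lower side the nearest were Pabpn1, Nanos1, Ddias, Etv4, Pim1, Smc2, Rangap1 and Gtpbp4, with edgeR adjusted p from 0.676 to 1.00. Pabpn1, a nuclear poly(A)-binding protein, stood at 1.16, 3.35 and 4.31 CPM against 3.72, 4.75 and 5.43 CPM, a log2 difference of -0.54 ± 0.16 (SE). Pabpn1 overlaps Gm20521 on the same strand, so its value is uncertain. The RNA-binding protein gene Nanos1 had -0.56 ± 0.16 (SE), and the transcription factor gene Etv4 had -0.56 ± 0.16 (SE). The kinase gene Pim1 had -0.25 ± 0.08 (SE), the condensin subunit gene Smc2 -0.31 ± 0.10 (SE), and Ddias, Rangap1 and Gtpbp4 had -0.47, -0.22 and -0.20. In all 8 genes the classes overlapped.

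Immune cell markers did not separate the classes. Of 19 T cell genes, 8 were positive with a median log2 difference of -0.03, and Cd3e stood at 1.82 to 4.24 CPM against 2.19 to 4.47 CPM. Cd8a had -0.12 (95% interval -0.51 to 0.28). The cytotoxic and natural killer list had 4 of 13 positive and a median of -0.12, with Gzmb at -0.46 ± 0.58 (SE) and Ncr1 at 0.12 ± 0.32 (SE). Macrophage genes had 6 of 16 positive and a median of -0.06, with Adgre1 (F4/80) at -0.17 (-0.45 to 0.11). Dendritic cell genes had 4 of 11 positive and a median of -0.11. Siglech, a marker of plasmacytoid dendritic cells, which are strong makers of type I interferon, had -0.17 (-0.73 to 0.39) at levels below 2 CPM. B cell genes had 11 of 16 positive with a median of 0.05, plasma cell genes 2 of 12 with a median of -0.26, and MHC class II genes 6 of 10 with a median of 0.03. H2-Aa had 0.00 (-0.30 to 0.30). In none of these lists did a gene pass with edgeR, and 2 genes in them had an unadjusted p under 0.05, Tbx21 at -0.43 and Klre1 at -0.63, both of the natural killer list.

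Inflammatory genes did not separate the classes. Of 19 genes of the NF-kappa-B list, 6 were positive with a median log2 difference of -0.11. Nfkbiz, an inducible regulator of this pathway, stood at 99.1 to 159 CPM against 85.0 to 174 CPM, and Birc3 at 76.4 to 148 CPM against 79.2 to 122 CPM. Tnf stood at 0.341, 0.937 and 6.47 CPM against 0.426, 1.13 and 1.996 CPM, and the 6.47 was mouse 20 alone. Nos2 stood at 0.116, 0.810 and 3.16 CPM against 0.0457, 0.380 and 25.0 CPM. Of the 13 neutrophil genes only 4 passed the filter on low counts. S100a8 had 8 counts over the 21 libraries.

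Epithelial and wall genes were close between the classes. Colon absorptive genes were positive in 15 of 17, with a median log2 difference of 0.13 and none with an unadjusted p under 0.05. Goblet genes were positive in 8 of 13, with Muc2 at -0.05 (95% interval -0.67 to 0.58) and Zg16, a lectin of the mucus layer, at 0.27 ± 0.11 (SE). Smooth muscle genes were positive in 12 of 13 with a median of 0.09, and fibroblast genes in 9 of 14 with a median of 0.01. Of 14 stem cell and Wnt genes 2 were positive, with a median of -0.06 and Lgr5 at -0.03 (-0.20 to 0.14). The carboxylesterases Ces2a and Ces2c, which hydrolyse drugs and lipids, had 0.29 ± 0.10 and 0.24 ± 0.09 (SE), and the xenobiotic list as a whole was positive in 14 of 20 with a median of 0.07. The 2 small intestine genes Fabp6 and Defa24 had standard errors above 2, with values from 0.106 to 71.7 CPM for Fabp6.

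Some lists leaned one way without a gene that passed. Cell cycle genes were negative in 18 of 21 with a median log2 difference of -0.20. In edgeR 5 of them had an unadjusted p under 0.05, against 2.71% of all genes outside the interferon lists. The mitotic genes Ccnb1 and Cdc20 had -0.38 ± 0.12 and -0.51 ± 0.18 (SE), and Mki67 stood at 90.9, 129 and 204 CPM against 104, 131 and 196 CPM. Immediate early genes, which respond within minutes to stress and handling, were negative in 16 of 16 with a median of -0.24. In edgeR 2 of these had an unadjusted p under 0.05. Nr4a1 had -0.56 ± 0.22 (SE) and Egr1 -0.57 ± 0.35 (SE), at 78.0 to 400 CPM against 59.6 to 324 CPM. Adipose genes were negative in 11 of 11 with a median of -0.31, but Adipoq had an SE of 0.97 and Lep of 0.89. Nuclear genes of the respiratory chain were positive in 16 of 16 with a median of only 0.05. In these last 2 lists 0 genes had an unadjusted edgeR p under 0.05. Members of a list vary together over libraries, so such a lean is no count of independent genes, and over all tested genes 48.6% were positive.

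**Figure D4:**
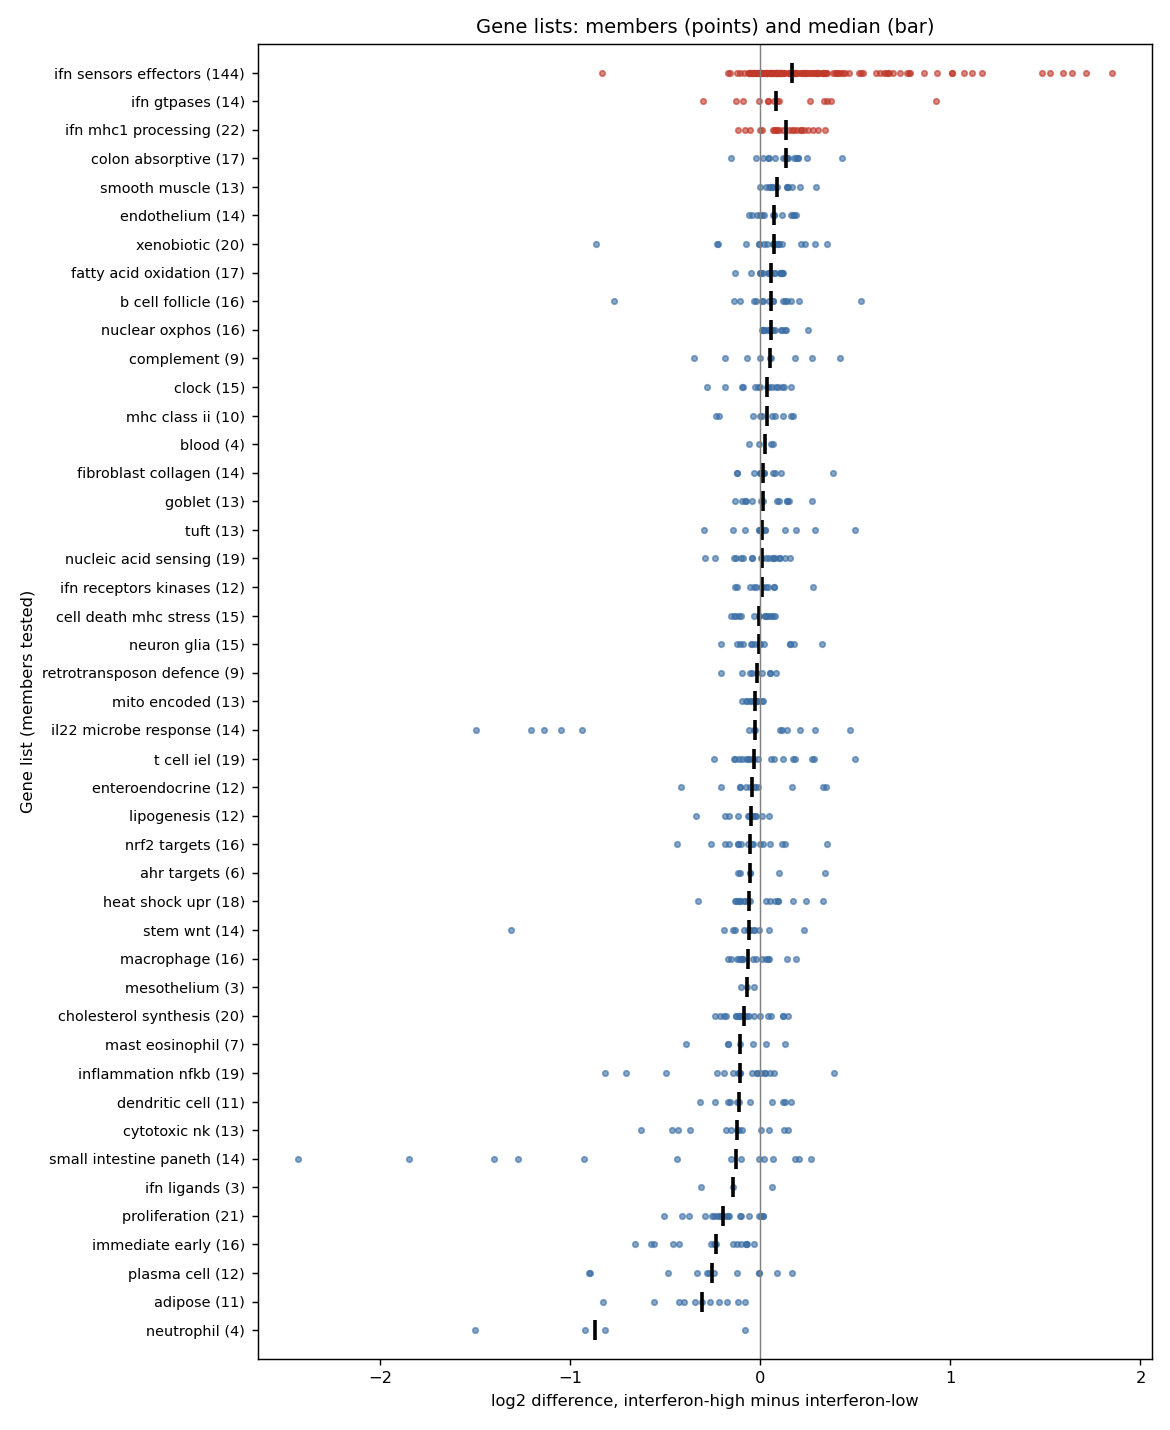
Log2 difference (interferon-high minus interferon-low) of each tested member (points) of 45 gene lists, with a black bar at the list's median and the number tested in brackets; interferon lists are red. Points beyond 1 are all in the interferon sensor and effector list at the right, and the list medians outside the interferon lists lie between 0.13 and -0.87, the lowest being 4 neutrophil genes at low levels.

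The classes also differed in depth, a library measure outside the rule. Total counts were 36093351 ± 4357299 (SD, n = 8) in the interferon-high and 43093890 ± 6284293 (SD, n = 13) in the interferon-low libraries. A two-sided exact permutation test within diets, with 7500 reassignments, gave p = 0.0209 (adjusted over 3 measures, 0.0314). The number of genes detected was 16993 ± 99.5 (SD) against 17179 ± 131 (SD), with exact permutation p = 0.00667 (adjusted 0.0200). After all libraries were thinned to the smallest total it was 16896 ± 66.1 against 17011 ± 106, with exact permutation p = 0.0319. The share of counts from the 13 mitochondrially encoded genes was 26.5% ± 2.95 against 26.1% ± 2.67 (exact permutation p = 0.884). The 3 mice numbered above 70 (76, 77 and 80) were all interferon-low. The part of depth in the gene differences was examined by adding the log2 library total to the fit, which left 19 genes past the threshold, 16 of them among the 24. Lypd8 then had a log2 difference of 0.42 with an edgeR adjusted p of 0.0279. With counts thinned to the smallest total, 23 genes passed, all among the 24, and 0 outside the interferon lists.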

How the data were processed

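RNA from 21 ceca was sequenced, 1 library per mouse, with stranded mRNA kits per the labels' protocols. The authors deposited raw counts per gene, whole numbers that were used as given. The submitters' processing notes name the build mm10; the aligner, counter, annotation and strand setting are not stated in these sources. Of 25361 identifiers, 5881 had 0 counts throughout and 25268 were found by identifier in GENCODE on GRCm38; 93 were not and stayed in the fit without a name. Between libraries of 1 diet, chi-square over its degrees of freedom was at least 15.5, so none were duplicates.

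The 8 and 13 libraries followed the given rule. The members, the gene lists and the tests were chosen with earlier results of these data known. edgeR 4.0.16 (R 4.3.3) fitted diet plus class to all libraries (robust quasi-likelihood, TMM factors). filterByExpr, run on diet, kept 15652 genes. Adjusted p is Benjamini-Hochberg over these, and a gene was called under 0.05. DESeq2 1.42.0 and limma 3.58.1 (voom) were alternatives. CPM uses TMM library sizes. The code was tested on simulated data. Outside the interferon lists, genes were named by 15 largest called changes per direction or, failing 10 calls, by the 8 lowest p with at least 1 CPM, plus fixed anchor genes. Other genes were named after their values were seen. Some items of the lists are not reported here. Labels number the mice but name no cage or litter, so p measures spread between mice taken as independent. Depth was 28514263 to 58594569 counts.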

Additional observations from a re-analysis of the deposited data

Results flagged for a closer look

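Values of single libraries that lay far from the other 7 interferon-high ceca are given here, by the gap to the nearest library over the range of the 8, with Dixon's test at the 95% level. Chance flags about 1 in 20 such groups, and 15 of 122 genes met the rule, several of them related genes from the same library. No cause was tested.

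Mouse 45 (2.5%) was the highest in Isg15 at 18.9 CPM (next 8.50), in Apol9b at 10.6 CPM (next 6.05), in Ifngr1 at 261 CPM and in Etv4 at 6.30 CPM, and the lowest in Stard3nl at 21.3 CPM. Mouse 17 (0%), with the smallest library total, was the highest in H2-K1 at 453 CPM, H2-D1 at 329 CPM and Mx2 at 4.66 CPM, and the lowest in Pabpn1 at 1.16 CPM, Psme1 at 7.504 CPM and Tlr3 at 45.8 CPM. Mouse 40 (2.5%) stood at 61.7 CPM for Reg3g and 65.4 CPM for Reg3b, antimicrobial lectins that are induced by bacteria and high in the ileum, where the nearest of the 8 had 6.98 and 9.49 CPM. That library also held small intestine signal. Mouse 20 (0.5%) stood at 6.47 CPM for Tnf (next 1.52). Mouse 42 (2.5%) stood at 126 CPM for Ifit1bl1 (next 78.6).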

How the results depend on the processing

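The count of 24 genes lay between 17 and 32 in all settings but DESeq2, which called 39, among them all 24; leaving out 1 library each gave 18 to 27. Outside the interferon lists the count was 0 to 1 when 1 library was left out, the 1 being Saa3 without mouse 77 (0.5% replicate 5). It was 2 with DESeq2 (Lypd8, Saa3). It was 1 without the 3 animals numbered above 70 (Saa3, 0.61) and without mice 40 and 77 (Saa3). With the marker mean as a continuous measure it was 1 (Oas1h, of the same family as the marker Oas1a). With the library total as a covariate, added after seeing the data, it was 1 (Lypd8). The test by diet gave 1 gene with DESeq2. Of the 24 interferon genes, 734 of 840 values over 35 settings stayed past the threshold, 106 fell below it and 0 reversed; the choice of libraries fixes this direction, so it is no sign of stability. Of 1398 values of 40 other named genes, 6 passed and 63 changed sign without a call, mostly H2-Aa, Ciita and Muc2. The cause of these shifts was not tested. No paired analysis was possible because replicate numbers were given in accession order and pair no mice. Depth limits genes near 1 CPM.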
